A study of Rattus norvegicus and Bos taurus with 6 samples.

Results

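The 7 genes described here carry out or control lipolysis, the stepwise release of fatty acids and glycerol from stored triglyceride: Pnpla2, Lipe, Mgll, Abhd5, G0s2, Pnpla3 and Aqp7. They were matched by gene symbol, in any case, in 6 single-nucleus RNA-seq libraries. All 7 of the 38697 genes listed for the rat Parse libraries and all 7 of the 25629 listed for the rat 10x library were found. In the cow list of 36075 genes, 5 were found, and G0s2 and Pnpla3 were not analysed here for cow. The rule names them by symbol and uses no measured value, but they were chosen with earlier results of these data known.

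The study tested a nuclei isolation protocol on frozen adipose tissue. Rat tissue came from male Dahl salt-sensitive rats (strain SS/HsdMcwiCrl) on a normal diet, and cow tissue came from the flank of a lactating female Holstein. The paper describes its cows as early in lactation, on a lactation diet and clinically healthy. The labels name no genetic change and no treatment, and they call all tissues normal. Ages are not given in the sources used here. The rat depots were mesenteric perivascular adipose tissue (mesPVAT) and retroperitoneal (RP) fat, which are labelled white, and thoracic aortic perivascular adipose tissue (taPVAT) and subscapular brown adipose tissue (BAT), which are labelled brown. The cow depot was subcutaneous white adipose tissue (sWAT). Parse Evercode, which barcodes RNA inside fixed nuclei, was used for all 5 tissues, and mesPVAT was also run with the droplet-based 10x 3' kit after another isolation protocol with a sort of stained nuclei. Each condition has 1 library and no replicate, and whether a library pools animals is not given in the sources used here. All intervals are therefore 95% intervals for counting error alone, and no difference between libraries was tested.

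The libraries held 2297 to 5887 nuclei and 845316 to 16827260 unique molecular identifiers (UMIs, counted RNA molecules). Median UMIs per nucleus were 161 for mesPVAT run on 10x. With Parse they were 346 for the library labelled mesPVAT, 213 for that labelled RP, 1246 for taPVAT, 1706 for BAT and 3530 for cow sWAT. No barcode was shared between any pair of libraries. Brown fat RNA, read from the uncoupling protein gene Ucp1, was at 1782 CPM (the gene's UMIs over all UMIs of the nuclei compared, scaled to a common total) in taPVAT and 2072 CPM in BAT. It was at 63.4 CPM in the library labelled mesPVAT, 89.9 CPM in the library labelled RP fat, and 1 UMI in mesPVAT 10x. The depths that the study describes for its depots differ from those of the files under the labels mesPVAT Parse and RP fat. Which of these libraries is which could not be settled here, so every value given for mesPVAT Parse or RP fat rests on the labels. Nuclei with at least 1 UMI of Plin1, the perilipin that coats the adipocyte lipid droplet, or Adipoq, the adipocyte hormone adiponectin, are called marker-positive. They made up 24.0% of nuclei in mesPVAT 10x, 23.2% in mesPVAT Parse, 10.5% in RP fat, 71.1% in BAT, 62.3% in taPVAT and 17.5% in cow sWAT. The cow split used Plin1 alone. As a check, 6 adipocyte genes left out of this split (Cidec, Plin4, Dgat2, Pck1, Acsl1 and Lep) were all at least 2 times higher in marker-positive nuclei of mesPVAT Parse, taPVAT, BAT and cow sWAT, as were the 5 with enough UMIs in RP fat. In mesPVAT 10x only 1 of the 6 was, at ratios of 1.55 to 2.12, so there the split separated adipocyte RNA poorly.

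Lipolysis runs in order. Adipose triglyceride lipase, the product of Pnpla2, removes the first fatty acid from triglyceride. Hormone-sensitive lipase, the product of Lipe, mainly cleaves the resulting diacylglycerol, and monoacylglycerol lipase, the product of Mgll, splits the last fatty acid from glycerol and also breaks down the endocannabinoid 2-arachidonoylglycerol. Abhd5 (CGI-58) activates the first lipase, G0s2 inhibits it, Pnpla3 is a relative of it that can bind Abhd5, and Aqp7 is a channel through which glycerol leaves the adipocyte. In brown fat the same fatty acids fuel heat production.

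In the rat genome build GRCr8 all 7 are protein-coding genes of separate loci. By RefSeq, Pnpla2 lies at chr1:205982279-205987361, Lipe at chr1:90093433-90112117, Mgll at chr4:122749436-122851440, Abhd5 at chr8:130877834-130903947, G0s2 at chr13:107335036-107335948, Pnpla3 at chr7:117173485-117194065 and Aqp7 at chr5:60968495-60982618. Mgll spans 102005 bases, against 5083 bases for Pnpla2 and 913 bases for G0s2. A long noncoding RNA gene (LOC120096895) overlaps Lipe. Whether counting used the strand is not given in the sources used here, so reads of the pair may not be told apart.

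The 250 bases before the gene start are shown for Pnpla2 and G0s2, whose RNA was higher in marker-positive nuclei of taPVAT and BAT, and for Mgll, whose RNA was not. They are RefSeq sequence of GRCr8, read 5′ to 3′ on the gene's own strand, and capitals mark 3 short motifs on either strand: the GC box (GGGCGG), the CCAAT box (CCAAT) and the nuclear receptor motif (AGGTCA).
Pnpla2 (chr1:205982029-205982278, plus strand): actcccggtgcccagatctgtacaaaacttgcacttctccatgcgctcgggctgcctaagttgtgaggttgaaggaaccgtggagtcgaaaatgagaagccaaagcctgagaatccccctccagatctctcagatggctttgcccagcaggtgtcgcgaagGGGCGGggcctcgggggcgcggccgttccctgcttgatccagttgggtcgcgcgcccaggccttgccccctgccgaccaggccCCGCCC
G0s2 (chr13:107335949-107336198, minus strand): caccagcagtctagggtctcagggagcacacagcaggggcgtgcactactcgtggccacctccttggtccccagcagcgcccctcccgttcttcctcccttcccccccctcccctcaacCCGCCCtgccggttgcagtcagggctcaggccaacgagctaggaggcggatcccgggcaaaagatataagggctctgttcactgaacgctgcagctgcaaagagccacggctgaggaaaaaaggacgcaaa
Mgll (chr4:122749186-122749435, plus strand): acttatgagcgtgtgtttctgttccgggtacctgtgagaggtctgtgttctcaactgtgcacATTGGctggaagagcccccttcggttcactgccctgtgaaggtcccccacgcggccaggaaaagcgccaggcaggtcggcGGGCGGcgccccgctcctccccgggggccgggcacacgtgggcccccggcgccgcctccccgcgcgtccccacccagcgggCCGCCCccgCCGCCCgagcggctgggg

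The GC box was found 2 times before Pnpla2, 1 time before G0s2 and 3 times before Mgll, and 30.5% of 33469 rat promoter windows of 250 bases hold it. The CCAAT box was found before Mgll alone of these 3 genes, and 34.0% of windows hold it. None of the 3 stretches held the nuclear receptor motif, which is in 14.1% of windows, the cAMP response motif (TGACG), which is in 18.2%, or the TATA box (TATAAA), which is in 12.9%. The GC content of the stretch was 63.6% for Pnpla2, 62.8% for G0s2 and 72.4% for Mgll. The motif counts thus gave no letters shared by Pnpla2 and G0s2 that Mgll lacked. The windows listed for Abhd5 and Pnpla3 do not begin at the gene's own start, so they are not printed. That of Abhd5 held 3 GC boxes and 1 nuclear receptor motif, and that of Pnpla3 held 2 GC boxes, 2 CCAAT boxes and 2 cAMP response motifs. Promoters of Lipe and Aqp7 were not analysed here.

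In whole libraries, the lipase genes Pnpla2 and Lipe were higher in both brown rat depots than in either white one counted with the same kit. Pnpla2 was at 762 CPM (95% interval 739 to 787) in taPVAT and 608 CPM (589 to 628) in BAT. It was at 118 CPM (102 to 136) in mesPVAT Parse and 86.4 CPM (67.7 to 109) in RP fat. The white intervals overlap each other and lie far below the brown ones. Lipe was at 986 CPM (959 to 1014) in taPVAT, 1066 CPM (1041 to 1092) in BAT, 377 CPM (348 to 407) in mesPVAT Parse and 130 CPM (107 to 157) in RP fat. Of these 4 Lipe levels no neighbours overlap in counting error. In whole libraries, fewer adipocyte nuclei and less RNA per adipocyte nucleus cannot be told apart.

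Mgll varied less among the same libraries. Its level was 847 CPM (822 to 873) in taPVAT, 1052 CPM (1027 to 1078) in BAT, 755 CPM (713 to 798) in mesPVAT Parse and 311 CPM (275 to 351) in RP fat. The library labelled mesPVAT was thus near taPVAT for Mgll, where it had been far below for Pnpla2.

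Like the lipases, the regulators and the glycerol channel were higher in both brown depots than in either white one. G0s2 differed less, with a ratio of taPVAT over mesPVAT Parse of 1.70 (1.26 to 2.34). That ratio was 6.44 for Pnpla2 and 2.62 for Lipe. Abhd5 was at 230 CPM in taPVAT, 153 CPM in BAT, 60.4 CPM in mesPVAT Parse and 47.3 CPM in RP fat, with the white intervals overlapping. G0s2 was at 52.4 CPM, 54.6 CPM, 30.8 CPM and 15.4 CPM in the same order, and its taPVAT and BAT intervals overlap. Pnpla3 was at 85.9 CPM, 67.3 CPM, 24.7 CPM and 21.3 CPM, and Aqp7 was at 135 CPM, 155 CPM, 32.0 CPM and 27.2 CPM. For these last genes the white libraries rest on few molecules, 41 and 18 UMIs of Pnpla3 and 53 and 23 UMIs of Aqp7.

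The mesPVAT library run on 10x gave other levels. Lipe was at 2795 CPM (2703 to 2890) there and Pnpla2 at 2153 CPM (2072 to 2236), the highest of the 6 libraries for both. Abhd5 was at 249 CPM and Pnpla3 at 135 CPM, also above mesPVAT Parse. Mgll, at 354 CPM (322 to 389), was below mesPVAT Parse, while G0s2 (21.8 CPM) and Aqp7 (33.1 CPM) had intervals that overlap those of mesPVAT Parse. Kit, isolation protocol and gene annotation differ between these libraries. Whether they came from the same animal is not given in the sources used here. Such differences cannot be told apart. In cow sWAT, Lipe was at 226 CPM, Pnpla2 at 75.7 CPM, Mgll at 558 CPM, Abhd5 at 44.4 CPM and Aqp7 at 122 CPM. The 10 nuclei richest in the gene held 20.4% of the Lipe UMIs and 22.4% of the Aqp7 UMIs. Under the study's limits on nuclei, which kept 259 of 401 cow marker-positive nuclei, cow Lipe was at 112 CPM, Pnpla2 at 41.2 CPM, Mgll at 452 CPM, Abhd5 at 27.2 CPM and Aqp7 at 55.8 CPM. Cow levels are given side by side only, since species, sex, lactation, diet and annotation differ.

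**Figure D1:**
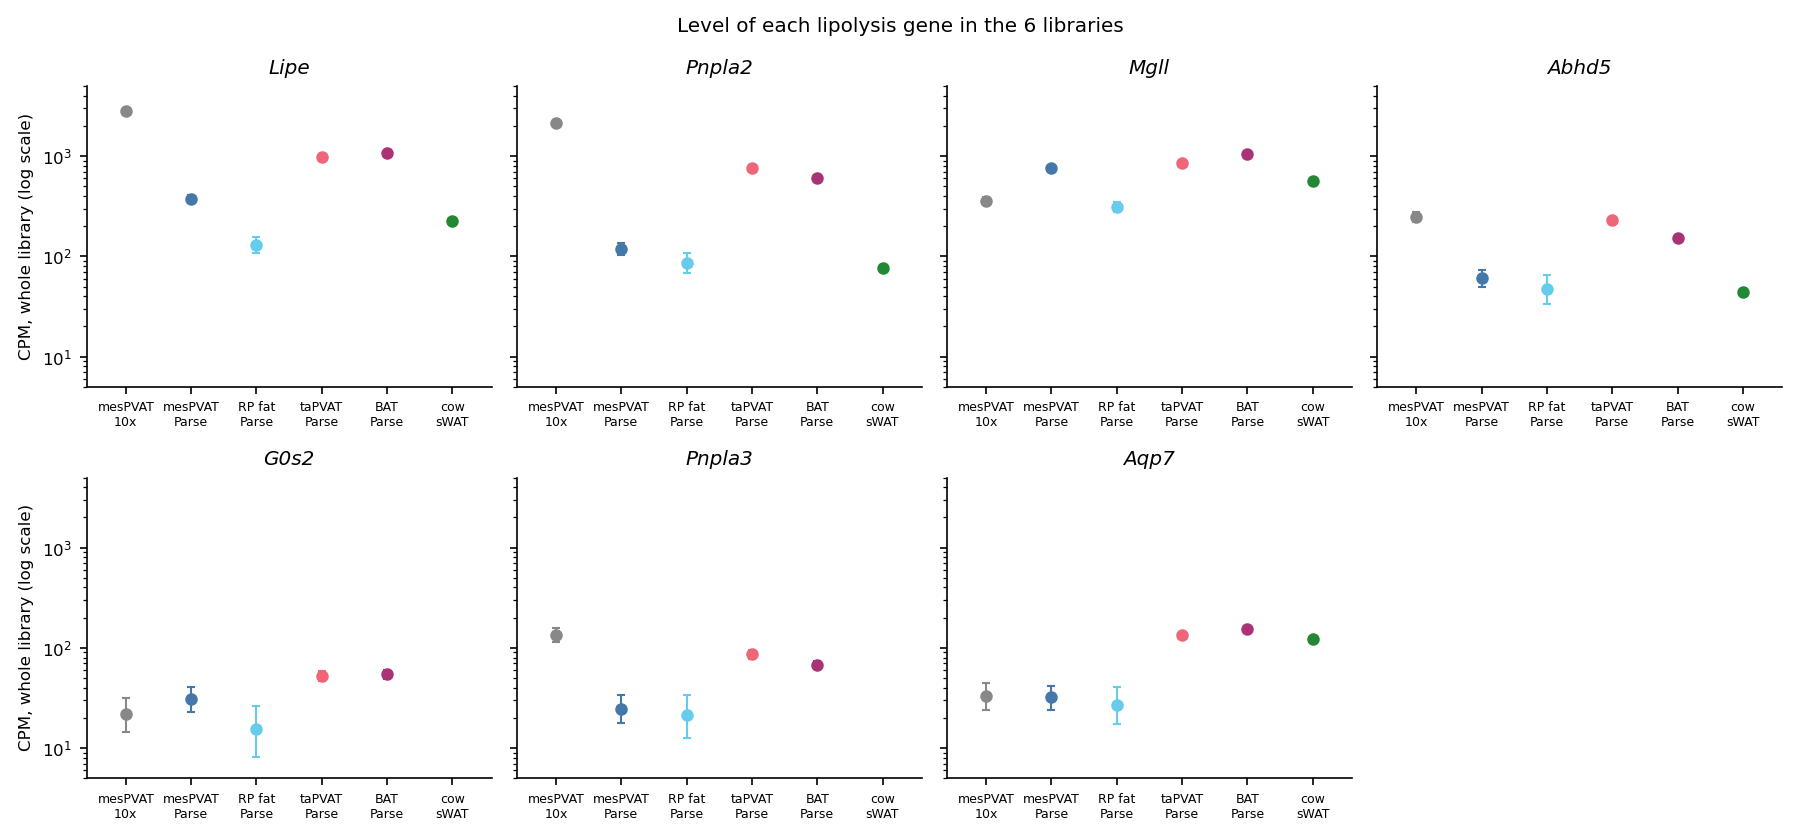
Level of each lipolysis gene in CPM (log scale) over all nuclei of each library, with 95% Poisson intervals, 1 point per library and 1 panel per gene. Lipe and Pnpla2 lie highest in mesPVAT 10x, at 2795 and 2153 CPM, and among the rat Parse libraries every gene is higher in taPVAT and BAT than in RP fat.

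The share of nuclei with a UMI of a gene depends on depth, so nuclei were also thinned to 200 UMIs each. Lipe was then detected in 17.5% (16.1 to 19.0) of nuclei in BAT, 13.7% (12.4 to 15.0) in taPVAT, 6.78% (5.83 to 7.82) in mesPVAT Parse, 2.00% (1.35 to 2.84) in RP fat, 2.18% (1.62 to 2.86) in cow sWAT and 38.8% (36.7 to 41.0) in mesPVAT 10x. Without thinning these shares were 67.1%, 53.7%, 15.3%, 3.64%, 22.2% and 33.8%. Cow sWAT, the deepest library, moved from above mesPVAT Parse to below it at equal depth. Thinning left out 3788 nuclei of mesPVAT 10x, 476 of mesPVAT Parse and 1302 of RP fat as too shallow, and none of the other libraries. Thinned shares of Pnpla2 were 11.9% in taPVAT, 9.52% in BAT, 1.88% in mesPVAT Parse, 1.86% in RP fat, 1.13% in cow sWAT and 33.5% in mesPVAT 10x. Mgll was detected in 17.3% of thinned BAT nuclei, 14.0% of taPVAT nuclei and 12.3% of mesPVAT Parse nuclei, but in 6.05% of RP fat, 6.92% of cow sWAT and 7.34% of mesPVAT 10x nuclei.

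Free RNA can put a UMI into a nucleus that does not make it, so the same shares were read in nuclei with immune markers and no Plin1 or Adipoq. In taPVAT, Pnpla2 was detected in 17.1% of thinned marker-positive nuclei (median 1858 UMIs before thinning) and 1.84% (0.381 to 5.28) of 163 immune-marker nuclei (median 723 UMIs). Lipe was detected in 18.2% of the former and 1.84% of the latter. In BAT the shares in marker-positive nuclei were 12.4% for Pnpla2 and 21.3% for Lipe (median 2188 UMIs), against 0 of 53 immune-marker nuclei (median 904 UMIs) for each, where a limit of 3 nuclei gives a share of up to 5.66% and the exact interval ends at 6.72%.

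The same comparison was made in the other 4 libraries. Medians in this paragraph are over all nuclei of a class, including those too shallow to thin. Medians of the thinned nuclei alone are not given here. In mesPVAT 10x, Lipe was detected in 18.2% (9.08 to 30.9) and Pnpla2 in 9.09% of 55 thinned immune-marker nuclei. The shares were 51.0% and 45.1% in marker-positive nuclei, of which 769 of 1413 were deep enough to thin. Both classes had a median of 213 UMIs over all their nuclei. In mesPVAT Parse, Lipe was detected in 5.26% (1.45 to 12.9) of 76 immune-marker nuclei (median 482.5 UMIs) and 10.6% (8.39 to 13.2) of marker-positive nuclei (median 599.5 UMIs), and these intervals overlap. Pnpla2 was at 1.32% (0.0333 to 7.11) and 3.95% (2.60 to 5.74), which overlap too. In RP fat, 0 of 27 immune-marker nuclei (median 326 UMIs) had a UMI of either gene, a share of up to 11.1% by the same limit, and 5.39% of marker-positive nuclei (median 301 UMIs) had one of each gene, so no difference was detectable at this depth. In cow sWAT, Lipe was in 0.631% (0.0765 to 2.26) and Pnpla2 in 0.946% (0.196 to 2.74) of 317 immune-marker nuclei (median 3548 UMIs), against 6.98% (4.69 to 9.93) and 3.99% (2.30 to 6.40) of marker-positive nuclei (median 8295 UMIs).

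Marker-positive and marker-negative nuclei of the same library were compared next, to ask how far the lipolysis genes follow adipocyte RNA. A gene was called when its CPM differed by at least 2 times and it had at least 20 UMIs. In the brown depots the pathway followed the markers closely, with Mgll as the exception. In taPVAT, 6 of 7 members were called higher, where 8.90% of 14682 genes tested were. In BAT, 6 of 7 were called higher, where 11.0% of 14829 genes were, and Mgll was called lower, where 26.1% of genes were. In taPVAT 29.2% of genes and none of the members were lower. The median ratio of the members was 6.00 in taPVAT and 4.10 in BAT, against 0.744 and 0.814 over all genes tested. The split rests mostly on Plin1, found in 1635 nuclei of taPVAT and 1866 of BAT, against 510 and 659 for Adipoq. With nuclei called positive by Adipoq alone, 0 of 7 members were called in either depot, and the Lipe ratio was 1.24 and 1.13. That setting puts the many nuclei with Plin1 but no Adipoq on the negative side. It therefore cannot decide how far the members follow adipocyte RNA. Shares of all genes are set beside counts of the main setting, not beside those by Adipoq alone or most other alternatives.

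Pnpla2 was at 902 CPM in marker-positive and 150 CPM in marker-negative nuclei of taPVAT, a ratio of 6.00 (5.08 to 7.15). In BAT it was at 696 CPM and 103 CPM, a ratio of 6.77 (5.53 to 8.38), and 97.5% of its UMIs were in marker-positive nuclei. Its activator Abhd5 had ratios of 7.19 (5.17 to 10.3) in taPVAT and 4.77 (3.39 to 6.93) in BAT. Its inhibitor G0s2 had ratios of 3.57 (2.16 to 6.34) and 4.10 (2.41 to 7.59). Pnpla3 had ratios of 8.08 (4.58 to 15.8) and 6.53 (3.61 to 13.2), from 12 and 11 UMIs in marker-negative nuclei. All these intervals lie above the 2-fold line.

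Lipe and Aqp7 had smaller ratios in BAT. Lipe was at 1140 CPM against 310 CPM in taPVAT, a ratio of 3.68 (3.27 to 4.15), and at 1183 CPM against 392 CPM in BAT, a ratio of 3.02 (2.72 to 3.36). The interval of Lipe lies below that of Pnpla2 in both libraries. Aqp7 had a ratio of 6.02 (4.04 to 9.37) in taPVAT and 2.36 (1.84 to 3.07) in BAT, with intervals that do not overlap.

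Mgll stood apart from the other members in the rat. It was at 844 CPM in marker-positive and 862 CPM in marker-negative nuclei of taPVAT, a ratio of 0.979 (0.907 to 1.06). In BAT it was at 908 CPM and 1885 CPM, a ratio of 0.482 (0.456 to 0.509), with an interval that crosses the 2-fold line. At equal depth, 13.6% of marker-positive and 26.5% of marker-negative BAT nuclei had an Mgll UMI. Leaving out the most abundant gene from the scaling ended the call of Mgll as lower, and that gene took 12.2% of BAT UMIs.

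In both white rat Parse libraries the ratios of Pnpla2, Abhd5 and Lipe were, as point values, lower than in either brown library. G0s2 in mesPVAT Parse and Mgll in RP fat had higher point values than in either brown library. In mesPVAT Parse the intervals of Pnpla2, Abhd5 and G0s2 overlap those of both brown libraries, while that of Lipe lies below both. The Mgll interval of RP fat overlaps that of taPVAT. With nuclei of at least 500 UMIs, the Pnpla2 and Lipe ratios of RP fat rose above the brown ratios given above over all nuclei. Every member had fewer UMIs in these white libraries. In mesPVAT Parse, 3 of 7 members were called higher, where 3.38% of 14212 genes were: Pnpla2 at 4.95 (3.55 to 7.03), G0s2 at 4.57 (2.38 to 9.34) and Abhd5 at 3.32 (2.15 to 5.22). Lipe, at 530 CPM against 278 CPM, had a ratio of 1.91 (1.62 to 2.24). By Adipoq alone, which was found in 111 nuclei and has the limit given above, 0 of 7 members were called higher there. The Lipe ratio was then 0.981. Mgll, at 648 CPM against 823 CPM, had a ratio of 0.788 (0.699 to 0.887). Pnpla3 (ratio 1.996) and Aqp7 (ratio 1.75) fell short of the 2-fold line on 41 and 53 UMIs. In RP fat, 4 of 5 members with enough UMIs were called higher, where 5.58% of 10320 genes were: Abhd5 at 3.65, Pnpla2 at 3.17, Lipe at 2.72 and Aqp7 at 2.66. The Lipe ratio was 1.45 in the first sequenced sublibrary alone and 5.05 in the second. The Aqp7 interval (0.926 to 6.84) includes 1, and Mgll was at 1.29 (0.917 to 1.78). G0s2 and Pnpla3 were not tested there, with 13 and 18 UMIs.

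In mesPVAT 10x, 1 of 7 members was called higher, Pnpla3 at 2.21 (1.61 to 3.02), where 2.42% of 8105 genes were. The other 6 members had ratios of 1.24 to 1.79, against 1.55 to 2.12 for the adipocyte check genes. Lipe was at 3833 CPM in marker-positive and 2341 CPM in marker-negative nuclei. Marker-negative nuclei assigned to no marker class (as defined below) numbered 3764 of 5887 in this library, with a median of 142 UMIs. Such nuclei may hold 1 class-marker UMI or tie between classes. They held Lipe at 2877 CPM and Pnpla2 at 2230 CPM, while stromal-marker nuclei held Lipe at 643 CPM and Pnpla2 at 446 CPM. The members were thus not held by marker-positive nuclei alone in this library. Among the 262 nuclei with at least 500 UMIs, 5 of the 5 members tested were called higher, Mgll included at 3.04 (1.71 to 5.67), and by Adipoq alone 0 of 7 were. The share of all genes called is not given for these settings, so these counts have no background here.

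In cow sWAT, all 5 members found were called higher, where 5.66% of 20169 genes were. Aqp7 was at 278 CPM against 16.2 CPM, a ratio of 17.2 (14.6 to 20.3). Lipe was at 497 CPM against 41.9 CPM, a ratio of 11.9 (10.7 to 13.1), and Pnpla2 at 160 CPM against 18.5 CPM, a ratio of 8.66 (7.41 to 10.2). Mgll, called higher in no rat library over all nuclei, had a ratio of 3.09 (2.96 to 3.23), and Abhd5 had the smallest, 2.44 (2.10 to 2.84). Cow marker-positive nuclei had a median of 8295 UMIs against 3122 UMIs in marker-negative nuclei, and the 10 nuclei richest in a member held 16.1% to 22.4% of its UMIs.

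**Figure D2:**
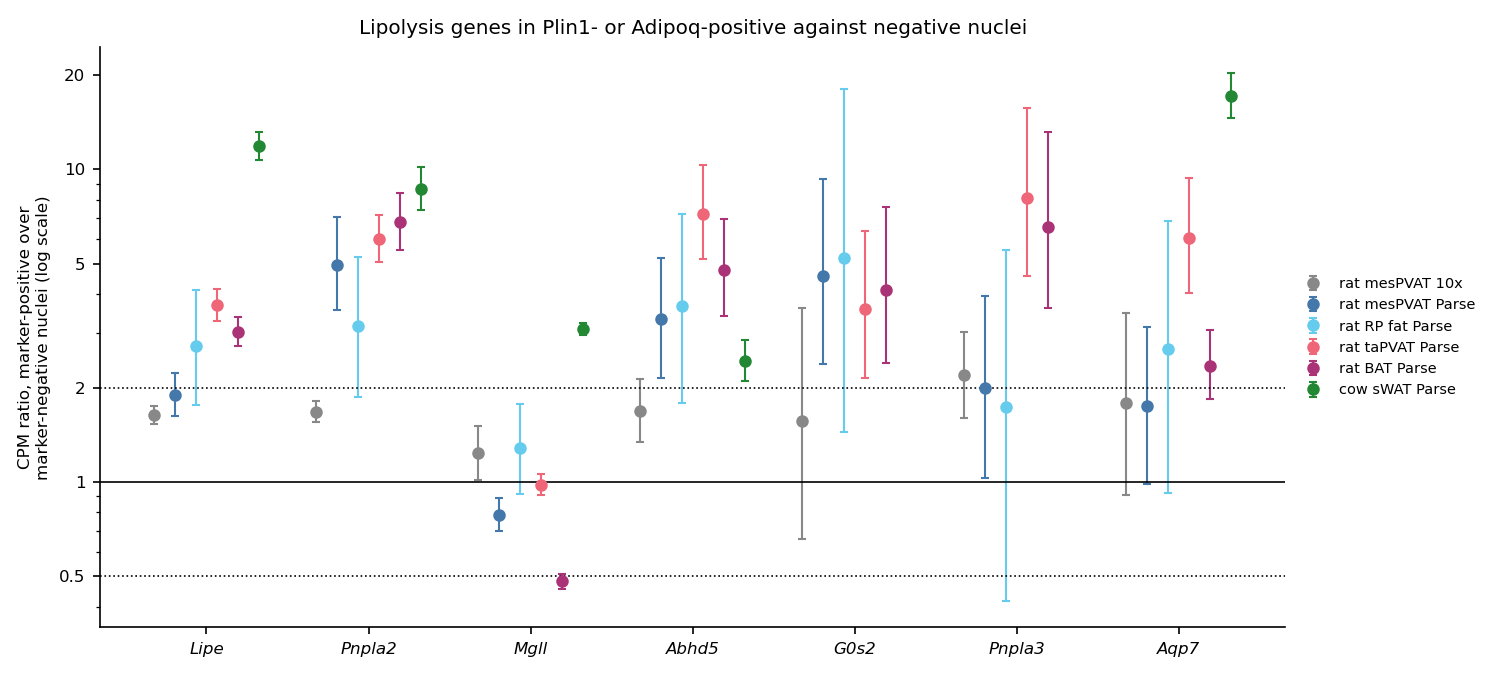
Ratio of CPM in Plin1- or Adipoq-positive over negative nuclei (log scale) for each lipolysis gene, 1 point per library with exact 95% intervals for counting error. The solid line marks equal levels and the dotted lines ratios of 2 and 0.5. G0s2 and Pnpla3 in RP fat are drawn but were not tested. Mgll lies at 0.482 in BAT and 0.979 in taPVAT, where the other 6 genes lie between 2.36 and 8.08, and at 3.09 in cow sWAT.

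To see which marker-negative nuclei held the members, these nuclei were sorted by their own markers: endothelial (such as Pecam1 and Cdh5), mural, stromal, immune and mesothelial, with at least 2 UMIs of 1 class and more than of any other. Doublets were not removed. Mgll was highest in endothelial-marker nuclei in all 4 rat Parse libraries. In BAT, 402 endothelial-marker nuclei held 1552 UMIs of Mgll, or 3074 CPM (2923 to 3231), which was 3.39 times (3.20 to 3.59) its level in marker-positive nuclei. The ratio of endothelial-marker to marker-positive nuclei was 2.13 (1.95 to 2.33) in taPVAT, 3.27 (2.82 to 3.80) in mesPVAT Parse and 1.82 (1.16 to 2.85) in RP fat. Mural, stromal and immune-marker nuclei of BAT and taPVAT held Mgll at 241 to 390 CPM, all below marker-positive nuclei. At equal depth, 41.8% (36.9 to 46.8) of endothelial-marker nuclei of BAT had an Mgll UMI, against 13.6% of marker-positive and 3.77% of immune-marker nuclei, at median depths of 995.5, 2188 and 904 UMIs before thinning.

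Lipe was also higher in rat endothelial-marker nuclei than in the mural, stromal and immune-marker nuclei of 3 Parse libraries. In the fourth, RP fat, it was at 141 CPM (60.7 to 277) in endothelial-marker and 126 CPM (54.6 to 249) in stromal-marker nuclei, on 8 UMIs each, and the intervals overlap. In the other 3, endothelial-marker nuclei held Lipe at 515 CPM (454 to 581) in BAT, 505 CPM (430 to 588) in taPVAT and 552 CPM (439 to 686) in mesPVAT Parse. Stromal-marker nuclei of the same libraries held 105 CPM, 152 CPM and 114 CPM, immune-marker nuclei 55.8 CPM, 96.6 CPM and 161 CPM, and mural-marker nuclei 141 CPM, 183 CPM and 275 CPM. Marker-negative nuclei assigned to no class held Lipe at 660 CPM (512 to 836) in BAT, 421 CPM (323 to 540) in taPVAT and 262 CPM (222 to 308) in mesPVAT Parse. These unassigned nuclei may hold 1 class-marker UMI, also an endothelial one, or tie between classes. In BAT the endothelial-marker nuclei did not stand above them. As a ratio to marker-positive nuclei, Lipe in endothelial-marker nuclei was at 0.435 (0.383 to 0.493) in BAT, 0.443 (0.377 to 0.517) in taPVAT and 1.04 (0.808 to 1.33) in mesPVAT Parse. Pnpla2, by the same measure, was at 0.125 (0.0908 to 0.168), 0.164 (0.121 to 0.218) and 0.175 (0.0634 to 0.391). The lipid droplet gene Cidec was at 0.189, 0.171 and 0.0660. The Lipe intervals lie above those of Pnpla2 in all 3 libraries.

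The 6 check genes were used to look for RNA of adipocytes in these nuclei. At these depths a nucleus with no UMI of them may still hold such RNA, so its source was not tested. In BAT, 198 of 402 endothelial-marker nuclei had no UMI of any of them, and in those Lipe was at 503 CPM (413 to 608) and Mgll at 3249 CPM (3012 to 3499). In taPVAT, 157 of 311 had none, with Lipe at 505 CPM (393 to 639) and Mgll at 1894 CPM (1671 to 2140). In mesPVAT Parse, 149 of 205 had none, with Lipe at 598 CPM (451 to 779) and Mgll at 2209 CPM (1915 to 2534). The intervals of Lipe and Mgll overlap those of all endothelial-marker nuclei in these 3 libraries, while Pnpla2 there was at 60.6 CPM, 139 CPM and 43.5 CPM. Nuclei with no check gene are part of that full set, so the overlap is partly fixed in advance. In RP fat, 69 of 83 had none, with Lipe at 178 CPM (76.7 to 350) on 8 UMIs. In mesPVAT 10x, immune-marker nuclei with no check gene still held Lipe at 599 CPM and Pnpla2 at 449 CPM. Stromal-marker ones there held 637 and 405 CPM, and endothelial-marker ones 960 and 443 CPM. This choice of nuclei was made after their values were seen.

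Endothelial-marker UMIs were also found in marker-positive nuclei, and their source was not tested. The 8 endothelial markers summed to 878 CPM in marker-positive and 4137 CPM in marker-negative nuclei of BAT, and to 759 CPM and 2524 CPM in taPVAT. They were at 721 and 1341 CPM in mesPVAT Parse, 353 and 851 CPM in mesPVAT 10x and 750 and 1742 CPM in cow sWAT. In RP fat they were at 838 CPM in marker-positive and 842 CPM in marker-negative nuclei, so there the split left endothelial-marker RNA as high on one side as on the other. Single markers went both ways in RP fat, given here as CPM in marker-positive and then marker-negative nuclei. Of the endothelial genes, Ptprb (277 and 205), Pecam1 (142 and 124), Flt1 (168 and 152) and Emcn (109 and 56.5) were higher in marker-positive nuclei. Cdh5 (16.8 and 48.2), Cyyr1 (83.8 and 129), Prox1 (33.5 and 109) and Mmrn1 (8.38 and 17.9) were lower. The immune gene Ptprc was higher (151 and 85.4). Dock2 (193 and 266), Mrc1 (50.3 and 53.7), Csf1r (50.3 and 56.5) and Cd163 (33.5 and 46.8) were lower. Without an endothelial-marker UMI were 234 of 295 marker-positive nuclei of RP fat and 132 of 401 of cow sWAT. In the 1281 marker-positive BAT nuclei with no endothelial-marker UMI, Mgll was at 625 CPM, a ratio of 0.332 (0.311 to 0.354) to marker-negative nuclei. With such nuclei alone as positive, the count of members called higher stayed at 6 of 7 in taPVAT and BAT. It went from 3 to 5 in mesPVAT Parse, as Lipe (2.19) and Pnpla3 (2.88) passed the 2-fold line. The share of all genes called is not given for this setting, so these counts have no background here. There the Aqp7 ratio went from 1.75 to 0.975 and that of Mgll from 0.788 to 0.594.

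In cow sWAT the 552 endothelial-marker nuclei held Mgll at 573 CPM (547 to 600), a ratio of 0.613 (0.582 to 0.646) to marker-positive nuclei, and Lipe at 69.8 CPM (60.9 to 79.6), a ratio of 0.140 (0.122 to 0.161). Both were above cow stromal-marker nuclei, where Mgll was at 160 CPM and Lipe at 33.9 CPM. So for Mgll the order of endothelial-marker and marker-positive nuclei was the opposite of that in the rat Parse libraries. In mesPVAT 10x, 151 endothelial-marker nuclei held Mgll at 272 CPM (149 to 457), which overlaps the 409 CPM (347 to 479) of marker-positive nuclei. Abhd5 in cow was at 56.7 CPM in immune-marker and 68.4 CPM in marker-positive nuclei, a ratio of 0.828 (0.660 to 1.03), while the other cow members were at 0.0415 to 0.231 of their marker-positive level in immune-marker nuclei.

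In BAT, Aqp7 was also found in nuclei with vascular markers. There it was at 87.1 CPM in endothelial-marker nuclei and 79.0 CPM in mural-marker nuclei, against 169 CPM in marker-positive nuclei and 10.5 CPM, on 1 UMI, in stromal-marker nuclei. In taPVAT the endothelial-marker level was lower, 36.9 CPM against 159 CPM in marker-positive nuclei. Abhd5, G0s2 and Pnpla3 in endothelial-marker nuclei of these 2 depots were each at 0.0515 to 0.204 of their marker-positive level. In BAT nuclei with no adipocyte check gene, Aqp7 was at 65.3 CPM (14 UMIs) with endothelial and 79.4 CPM (6 UMIs) with mural markers. It was not particular to BAT. Such endothelial-marker nuclei of mesPVAT Parse held Aqp7 at 76.2 CPM (30.6 to 157) on 7 UMIs, against 43.3 CPM in marker-positive nuclei.

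**Figure D3:**
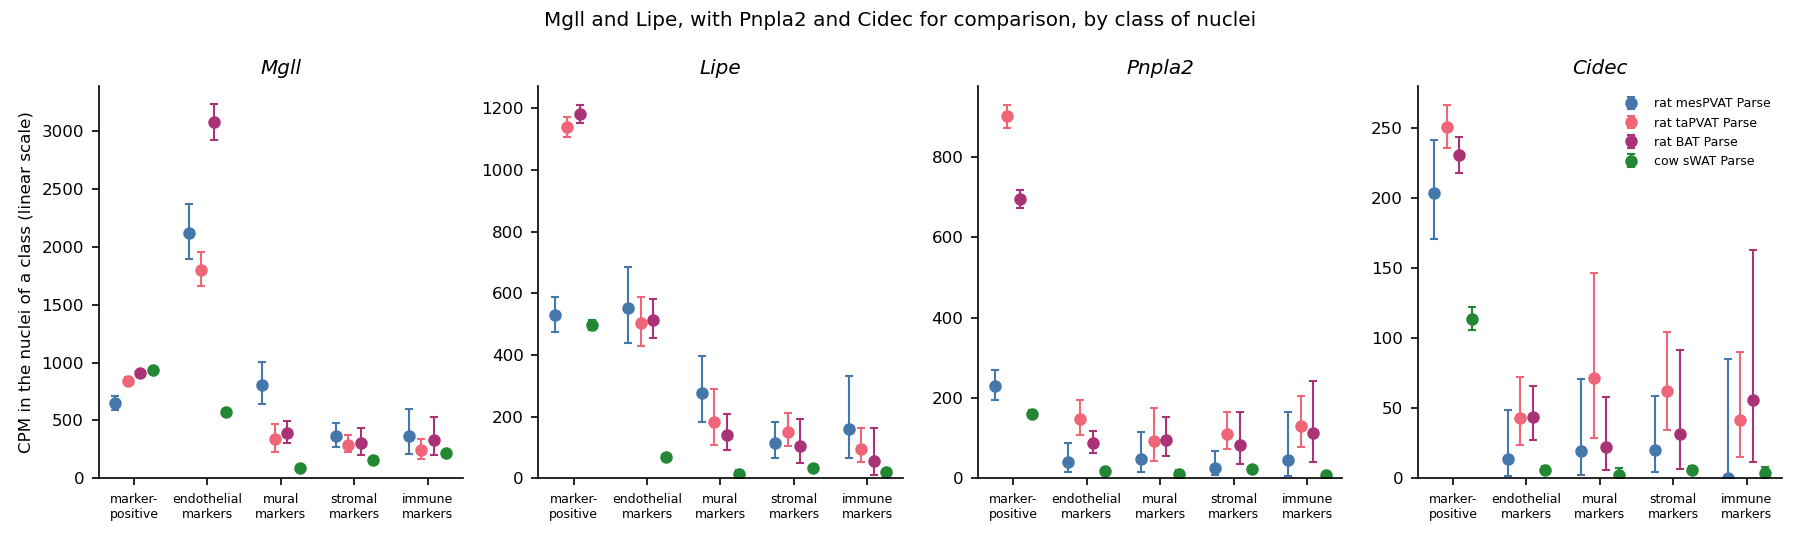
CPM (linear scale) of Mgll, Lipe and Pnpla2 and of the lipid droplet gene Cidec in marker-positive nuclei and in marker-negative nuclei sorted by endothelial, mural, stromal or immune markers, for 3 rat libraries and cow sWAT, with 95% Poisson intervals. Mgll peaks in endothelial-marker nuclei of the rat libraries, at 3074 CPM in BAT, and Lipe stands at 505 to 552 CPM there. Pnpla2 and Cidec lie below their marker-positive level in all 4 marker-negative classes.

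The brown and white rat depots were then compared in marker-positive nuclei alone, within the Parse kit. Between the brown depots, 0 of 7 members were called, where 4.37% of 16815 genes were higher in taPVAT and 1.20% lower. Pnpla2 was at 902 CPM in taPVAT and 696 CPM in BAT, and the interval of its ratio was 1.24 to 1.36. Abhd5 (274 and 173 CPM) had a ratio of 1.58 (1.45 to 1.72) and Pnpla3 (103 and 76.9 CPM) a ratio of 1.33 (1.16 to 1.53). Lipe had a ratio of 0.964, Mgll of 0.930, G0s2 of 0.983 and Aqp7 of 0.941. The first 3 intervals lie above 1 in counting error, without reaching 2.

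Against mesPVAT Parse, taPVAT had 5 of 7 members called higher and 0 lower, where 13.0% of 15327 genes were higher and 35.0% lower. Pnpla2 was at 902 CPM in taPVAT and 230 CPM in mesPVAT, a ratio of 3.91 (3.32 to 4.64). Aqp7, at 159 and 43.3 CPM, had a ratio of 3.67 (2.52 to 5.57), Pnpla3 of 2.88 (1.90 to 4.60), Abhd5 of 2.60 (2.04 to 3.38) and Lipe of 2.15 (1.93 to 2.40). Mgll was at 844 and 648 CPM, with an interval of the ratio of 1.18 to 1.44. G0s2, at 60.4 and 58.8 CPM, had a ratio of 1.03 (0.729 to 1.49). The inhibitor G0s2 thus did not differ beyond counting error between these libraries, in which Pnpla2, its target, was called higher in taPVAT. In marker-positive nuclei with no endothelial-marker UMI, G0s2 was at 65.6 CPM in taPVAT and 99.5 CPM in mesPVAT. The median ratio over all genes tested was 0.809. Of the adipocyte check genes, Dgat2 (2.93) and Acsl1 (2.08) were also called higher in taPVAT. Plin4 (0.196) and Lep (0.223) were called lower, and Pck1 (1.71) and Cidec (1.23) were not called.

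Against RP fat, BAT had 5 of 7 members called higher and 0 lower, where 10.9% of 14223 genes were higher and 50.4% lower, with a median over all genes of 0.495. The last 2 values rest on the rule that sets counts under 3 UMIs to 3 on both sides, since 1562 of these genes had no UMI in RP fat. With the floor on the lower side only, an alternative added after seeing the data, 35.6% were lower and the median without a floor was 0.864, while the members called stayed at 5 and 0. Lipe was at 1183 CPM in BAT and 285 CPM in RP fat, a ratio of 4.15 (2.97 to 6.00), and Pnpla2 at 696 and 209 CPM, a ratio of 3.32 (2.25 to 5.14). Aqp7 had a ratio of 2.88 (1.39 to 7.19), Mgll of 2.35 (1.76 to 3.22) and Pnpla3 of 2.29 (0.889 to 8.46), the last on 4 UMIs in RP fat and with an interval that includes 1. Abhd5 had a ratio of 1.38 (0.832 to 2.48) and G0s2 of 1.22 (0.556 to 3.36). By Adipoq alone, found in 32 RP fat nuclei, 3 members were called higher and 2 lower, but the 2, G0s2 and Pnpla3, had no UMI in RP fat and were called only through the floor. With nuclei of at least 500 UMIs 3 were higher. For neither of these settings is the share of all genes called given here. Between the white depots, 0 of 7 members were called, where 7.34% of 8038 genes were higher in mesPVAT and 9.99% lower. Lipe (530 and 285 CPM) had a ratio of 1.86 (1.31 to 2.73) and Mgll (648 and 385 CPM) of 1.68 (1.24 to 2.33), and the other 5 intervals include 1. These depot pairs share libraries, so their counts are not independent. Marker-positive nuclei had median depths of 1858 UMIs in taPVAT, 2188 in BAT, 599.5 in mesPVAT and 301 in RP fat, and the part of depth in these ratios was not tested.

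**Figure D4:**
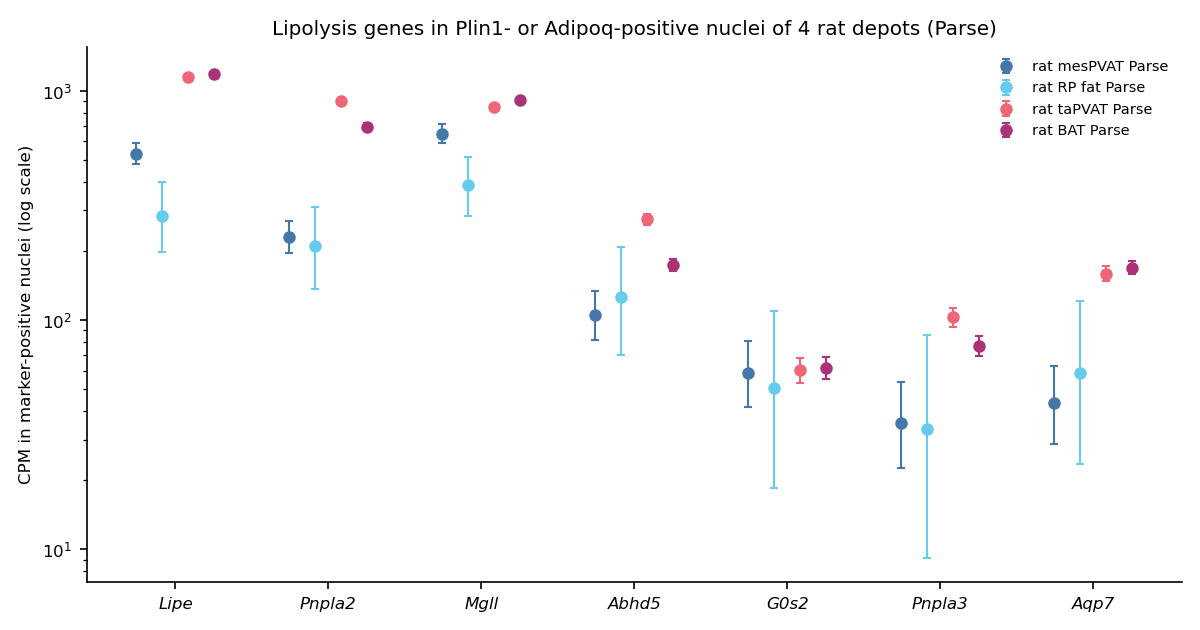
CPM (log scale) of each lipolysis gene in marker-positive nuclei of the 4 rat Parse libraries, with 95% Poisson intervals. G0s2 lies at 50.3 to 61.5 CPM in all 4 libraries, but on only 6 UMIs in RP fat, where its interval is wide. Pnpla2 lies at 209 to 230 CPM in the white libraries and 696 to 902 CPM in the brown ones.

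Further genes of the pathway were read from a list of 21: droplet proteins, adrenergic and other receptors, cAMP signalling genes and related enzymes. In marker-positive against marker-negative nuclei, 14 of 20 tested were called higher in taPVAT and 15 of 19 in BAT, with 2 and 1 lower, where 8.90% and 11.0% of all genes were higher and 29.2% and 26.1% lower. In the other libraries 7 of 18 were higher in mesPVAT Parse, 4 of 17 in RP fat, 6 of 18 in mesPVAT 10x and 10 of 18 in cow sWAT, against 3.38%, 5.58%, 2.42% and 5.66% of all genes. Adrb3, the main adrenergic receptor of rodent fat, had ratios of 11.9 in BAT, 8.38 in taPVAT and 7.38 in mesPVAT Parse. Prkar2b, a regulatory subunit of protein kinase A, had ratios of 8.26, 6.58 and 3.17. In cow sWAT Adrb3 had 3 UMIs in all, while Ptger3, a prostaglandin receptor that lowers cAMP, and Adora1, an adenosine receptor that does the same, had ratios of 12.3 and 12.0. A single cow nucleus held 188 of the 1851 Ptger3 UMIs.

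Between depots, 12 of 19 pathway genes tested were called higher in marker-positive nuclei of taPVAT than of mesPVAT Parse and 2 lower, where 13.0% and 35.0% of all genes were. In BAT against RP fat 11 of 19 were higher and 1 lower, where 10.9% and 50.4% of all genes were, or 35.6% lower with the floor on the lower side only. Gk, the kinase that returns glycerol to lipid synthesis, was at 785 CPM in taPVAT and 38.7 CPM in mesPVAT, a ratio of 20.3 (13.7 to 31.4). Hcar1, the lactate receptor that restrains lipolysis, was at 37.5 CPM and 104 CPM, a ratio of 0.362 (0.270 to 0.490), and Ptger3 at 39.0 and 118 CPM, a ratio of 0.332 (0.251 to 0.442). Between taPVAT and BAT 0 of 19 were called, where 4.37% of all genes were higher and 1.20% lower. Between the white depots, 7 of 17 were higher in mesPVAT and 0 lower, where 7.34% and 9.99% of all genes were.

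More than 1 member was often found in a nucleus of the deeper libraries, with 2 or more in 83.5% of marker-positive nuclei of BAT and 79.9% of taPVAT. At least 1 member had a UMI in 94.7% of marker-positive nuclei in BAT, 91.0% in taPVAT, 83.8% in cow sWAT, 71.8% in mesPVAT 10x, 59.3% in mesPVAT Parse and 31.5% in RP fat. After thinning to 200 UMIs these shares were 45.4%, 47.1%, 20.7%, 73.2%, 27.8% and 18.1%, against 34.8%, 23.7%, 8.07%, 49.2%, 18.6% and 10.1% in marker-negative nuclei. All 7 members were found in 30 marker-positive nuclei of BAT and 18 of taPVAT, and all 5 in 92 of cow sWAT.

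Likeness of pattern was measured as a Pearson correlation of log2(CPM + 10) over 20 points, the marker-positive, endothelial, stromal, immune and mural nuclei of the 4 rat Parse libraries, among 9376 genes. These points share libraries and differ in depth, so the values are a description. Pnpla2 was most like Sik2 (r = 0.91), Adrb3 (0.90) and Prkar2b (0.90). Lipe was most like Arhgap29 (0.90) and Tspan12 (0.88), and Mgll most like AABR07007032.1 (0.95), Ptprm (0.90) and Palmd (0.90). Abhd5 was nearest to Prodh (0.84), G0s2 to Agpat3 (0.81), Pnpla3 to Rxrg (0.83) and Aqp7 to Msi2 (0.84). Among the members, Lipe had r = 0.78 with Mgll and 0.60 with Pnpla2, while Mgll and Pnpla2 had r = 0.12.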

How the data were processed

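For the Parse libraries, the authors split rat from cow reads, used split-pipe with the GRCr8 (rat) and ARS-UCD1.3 (cow) genomes, and deposited raw UMI counts per gene and barcode of the filtered matrix, without normalization. For the 10x library, the authors deposited Cell Ranger UMI counts of called cells, with the older rat build Rnor_6.0 named in the supplementary methods. The counts of all deposited nuclei were used, 845316 to 16827260 UMIs per library. FastQC and Scanpy are named in the submitters' processing notes without a version or role.

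Samples were grouped by their titles. The genes and lists were chosen with earlier results of these data known. UMIs were summed over nuclei and scaled to CPM (pandas 2.3.3, numpy 2.4.6 and scipy 1.17.1 in Python 3.11.15), and plots used matplotlib 3.10.9. Counts have exact Poisson intervals, shares exact Clopper-Pearson intervals, and ratios conditional binomial intervals, at 95%. No p-value was computed, since each condition has 1 library. A gene was tested with at least 20 UMIs and called at a ratio of 2, counts under 3 being set to 3, and Plin1 and Adipoq were left out. Nuclei of at least 200 UMIs were thinned to 200 with seed 20. All 7 members are named, and other genes come from a list of 21 or from the 3 most alike, of which 1 is not reported here. For likeness, genes had at least 200 UMIs, marker genes were left out, and classes under 10000 UMIs, the mesothelial ones, were dropped, a limit chosen after seeing the data. Calls were tested on simulated counts. Alternatives were another scaling, limits on nuclei, other definitions of a positive nucleus, other call limits, single sublibraries and other thinning. Lipe and Aqp7 promoters were not analysed here. Genes named for their ratios in the list of 21 were picked after their values were seen.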

Additional observations from a re-analysis of the deposited data

How the results depend on the processing

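No paired analysis was possible because each condition has 1 library. The cause of the changes below was not tested, except where the alternative itself sets it. Shares of all genes called are not given beside the counts below, which therefore lack a background.

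With nuclei called positive by Adipoq alone, which puts the many Plin1-only nuclei on the negative side, 0 members were called higher in BAT, taPVAT, mesPVAT Parse and mesPVAT 10x, and 0 lower in BAT. The Lipe ratio fell in mesPVAT Parse to 0.981, close to equal levels. It moved to 1.13 in BAT, 1.24 in taPVAT, 1.49 in RP fat and 1.37 in mesPVAT 10x. The Pnpla2 ratio moved to 1.21 in BAT, 1.29 in taPVAT, 1.55 in mesPVAT Parse and 1.37 in mesPVAT 10x. BAT was then higher than RP fat for 3 members and lower for 2, G0s2 and Pnpla3, which had no UMI in the 32 Adipoq-positive RP fat nuclei, so the floor of 3 UMIs alone made these 2 calls. The floor also made the RP fat calls of Abhd5 and Aqp7 as higher by Adipoq alone, on 1 UMI each. By Plin1 alone, the Lipe ratio in mesPVAT 10x was 1.76. With 2 or more UMIs for a positive nucleus, 5 members were called higher in mesPVAT Parse and 4 in mesPVAT 10x, 1 was higher and 1 lower in mesPVAT than in RP fat (the latter, Pnpla3, through the floor, at 2 UMIs in RP fat), and the Lipe ratio was 14.5 in cow sWAT and 4.90 in RP fat, with Pnpla2 at 10.4 in cow sWAT.

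With nuclei of at least 500 UMIs, 2 members were called higher in RP fat, 5 in mesPVAT 10x and 3 in BAT over RP fat. The Lipe ratio was then 4.54 in RP fat and 2.94 in mesPVAT 10x, and the Pnpla2 ratio 7.72 and 3.83. Under the study's limits (100 to 15000 UMIs, at most 4500 genes and 3% mitochondrial UMIs), which kept 259 of 401 cow marker-positive nuclei, the cow ratios were 9.31 for Lipe and 7.30 for Pnpla2, cow Lipe fell to 112 CPM and cow Aqp7 to 55.8 CPM, and 1 member was higher in mesPVAT than in RP fat. In sublibraries 1 and 2 alone, the Lipe ratio was 1.45 and 5.05 in RP fat and 3.09 and 4.63 in taPVAT. A gene minimum of 50 UMIs gave 2 members higher in RP fat. Abhd5 and Aqp7, with 40 and 23 UMIs there, fell under that minimum and were not tested. A ratio of 1.5 gave 6 higher in mesPVAT Parse, 6 in mesPVAT 10x, 2 in mesPVAT over RP fat and 1 in taPVAT over BAT. Without the most abundant gene, 0 were lower in BAT. With positive nuclei that held no endothelial-marker UMI, an alternative added after seeing the data, 5 were higher in mesPVAT Parse and 1 in mesPVAT over RP fat, the Lipe ratio was 14.3 in cow sWAT and 3.38 in BAT, and the Pnpla2 ratio was 12.1 in cow sWAT. With the floor on the lower side only, also added later, no count of members changed. Under the other settings run, counts of members stayed within 1.5 times and Lipe and Pnpla2 ratios within their intervals. Of 186 alternative values for whole-library levels, 41 moved out of their intervals, and of 80 for shares of nuclei, 25 did. Of 18 levels of Lipe, Mgll and Pnpla2 in endothelial-marker nuclei with no check gene, 5 did.

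Shallow white libraries limit the rarer members: G0s2, Pnpla3 and Aqp7 had 4 to 7 UMIs in marker-positive nuclei of RP fat, and the intervals of their ratios are wide.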
